A study of Mus musculus with 6 samples.

Results

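Glucose uptake and glycolysis are run by families of isozymes, and this account follows H3K4me3 at 36 mouse genes for glucose transport, glycolysis, lactate transport and the kinases of pyruvate dehydrogenase, together with the transcription factor gene Myc. The genes were taken from a fixed list, grouped into 16 steps of the pathway, out of 21887 protein-coding genes in the gene table. H3K4me3, trimethylation of lysine 4 of histone H3, is a histone mark that sits around transcription starts in use. It had been profiled by immunoprecipitation and sequencing of chromatin cut with micrococcal nuclease.

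The chromatin came from cells labelled as CD8+ lymphocytes out of E0771 tumours, a mouse mammary tumour line, in C57BL/6 mice. One library was from wild-type mice and the other from mice in which Cre had deleted Atg5, a gene needed to build autophagosomes. No source used here gives the Cre driver, the animals' age or whether animals were pooled. With 1 library per genotype there was no replicate check of any difference, and no p-value or SD could be given. The series compares the mark between the genotypes, and here the question is whether H3K4me3 at these genes differs between them.

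Glycolysis splits glucose into pyruvate. Activated T cells take up more glucose, send much of the pyruvate to lactate and export it, and Myc and HIF-1 are known to switch on many of the genes involved. Several steps have isozymes whose use differs by tissue, such as the muscle and liver forms. Pyruvate dehydrogenase kinases hold pyruvate back from the mitochondria.

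The wild-type list held 48546 regions and the knockout list 46565, or 71.3 and 73.1 Mb of the genome. The depth of either library is unknown. The labelled cell type was checked first. Of 11 T cell marker genes, 4 had a region within 1 kb of the start in the wild type against 11 in the knockout. Their covered length, the bp under regions within 2.5 kb, summed to 6934 and 50325 bp, and Cd3e, Cd8a, Cd2, Thy1 and Bcl11b had 0 bp in the wild type. Of 10 myeloid markers, 10 and 8 were marked (19505 and 15584 bp). Of 9 fibroblast and endothelial markers, 6 and 7 were marked (22591 and 18496 bp), and of 8 epithelial markers 7 and 7 (10055 and 13720 bp). Few of 6 B cell markers (1 and 2) and 4 NK cell markers (1 and 2) were marked. The library labelled wild type therefore lacked regions at several defining genes of CD8+ T cells, and genotype and cell makeup cannot be told apart in any difference below. Nor can fewer cells of a type and less signal per cell.

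Promoter sequences of 4 isozymes are shown first, because these pairs hold the clearest contrast within a step. Pgam1 and Pkm lay under H3K4me3 in both lists, and Pgam2 and Pklr in neither. The sequences are RefSeq's (GRCm38.p6) and run 5′ to 3′ from 250 bases before to 50 after the start, with each CG pair in capitals. Pgam1 lies at chr19:41911621-41911920 (+ strand), Pgam2 at chr11:5803747-5804046 (− strand), Pkm at chr9:59656326-59656625 (+ strand) and Pklr at chr3:89135892-89136191 (+ strand).
Pgam1: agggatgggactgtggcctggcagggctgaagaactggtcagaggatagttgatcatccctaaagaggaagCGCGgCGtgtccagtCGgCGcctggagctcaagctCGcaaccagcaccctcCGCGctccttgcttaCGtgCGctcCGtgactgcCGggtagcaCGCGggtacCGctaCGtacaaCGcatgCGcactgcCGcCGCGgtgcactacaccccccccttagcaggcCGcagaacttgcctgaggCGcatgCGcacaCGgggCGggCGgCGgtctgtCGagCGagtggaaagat
Pgam2: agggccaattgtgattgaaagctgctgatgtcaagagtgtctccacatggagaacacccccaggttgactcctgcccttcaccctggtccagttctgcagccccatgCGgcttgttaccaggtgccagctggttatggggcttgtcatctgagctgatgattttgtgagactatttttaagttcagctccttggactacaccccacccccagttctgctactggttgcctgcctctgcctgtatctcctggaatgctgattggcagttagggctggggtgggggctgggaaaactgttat
Pkm: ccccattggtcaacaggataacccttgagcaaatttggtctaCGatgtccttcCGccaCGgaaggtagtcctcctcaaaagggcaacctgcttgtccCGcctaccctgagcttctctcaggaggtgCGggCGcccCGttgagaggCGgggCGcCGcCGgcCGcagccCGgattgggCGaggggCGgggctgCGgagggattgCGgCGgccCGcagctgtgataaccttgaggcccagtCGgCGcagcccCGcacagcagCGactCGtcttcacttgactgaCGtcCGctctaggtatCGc
Pklr: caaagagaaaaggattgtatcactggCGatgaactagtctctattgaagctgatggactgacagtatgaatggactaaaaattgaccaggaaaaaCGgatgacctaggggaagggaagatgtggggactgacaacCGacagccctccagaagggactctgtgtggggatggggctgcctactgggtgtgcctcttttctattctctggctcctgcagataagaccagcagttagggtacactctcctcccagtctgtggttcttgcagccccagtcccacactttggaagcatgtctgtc
The marked Pgam1 and Pkm held 30 and 27 CG pairs. The unmarked Pgam2 and Pklr held 1 and 3.

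A gene was called marked when a region lay within 1 kb of its start, and the covered length within 2.5 kb could reach 5001 bp. In each list 34 of the 36 genes were marked, and they were the same 34. Over all protein-coding genes the shares marked were 60.4% (wild type) and 62.0% (knockout), with 58.8% in both lists and 36.4% in neither. None of the 36 was marked in 1 list only, whereas 3.21% of all genes were marked only in the knockout and 1.64% only in the wild type. At 32 genes the start itself lay inside a region in both lists, and the share of all genes with this was not computed.

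Covered length at these genes was close between the genotypes. It was longer in the knockout for 11 genes, shorter for 22 and equal for 3, with a median difference of −46 bp, beside 0 bp over all protein-coding genes, of which many had no coverage. Over genes covered in both lists the median was −70.5 bp for these 34, of which 32.4% were longer and 64.7% shorter, and −23 bp for all 13394, of which 45.6% were longer and 53.2% shorter. The median covered length was 3288 bp in the wild-type library and 3300 bp in the knockout. At 14 of the 34 marked genes the lists differed by under 100 bp, and the share of all genes that did so was not computed. The lists differed by at least 500 bp at 5 genes. Pdk1 and Ldhb were longer in the knockout (5.56% of the 36, against 10.0% of all genes), and Slc2a8, Slc2a6 and Pdk4 were shorter (8.33%, against 6.63%). Over genes covered in both lists the shares were 5.88% and 8.82% of these 34, against 12.6% and 9.15%. The shares are near or under the background.

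**Figure D1:**
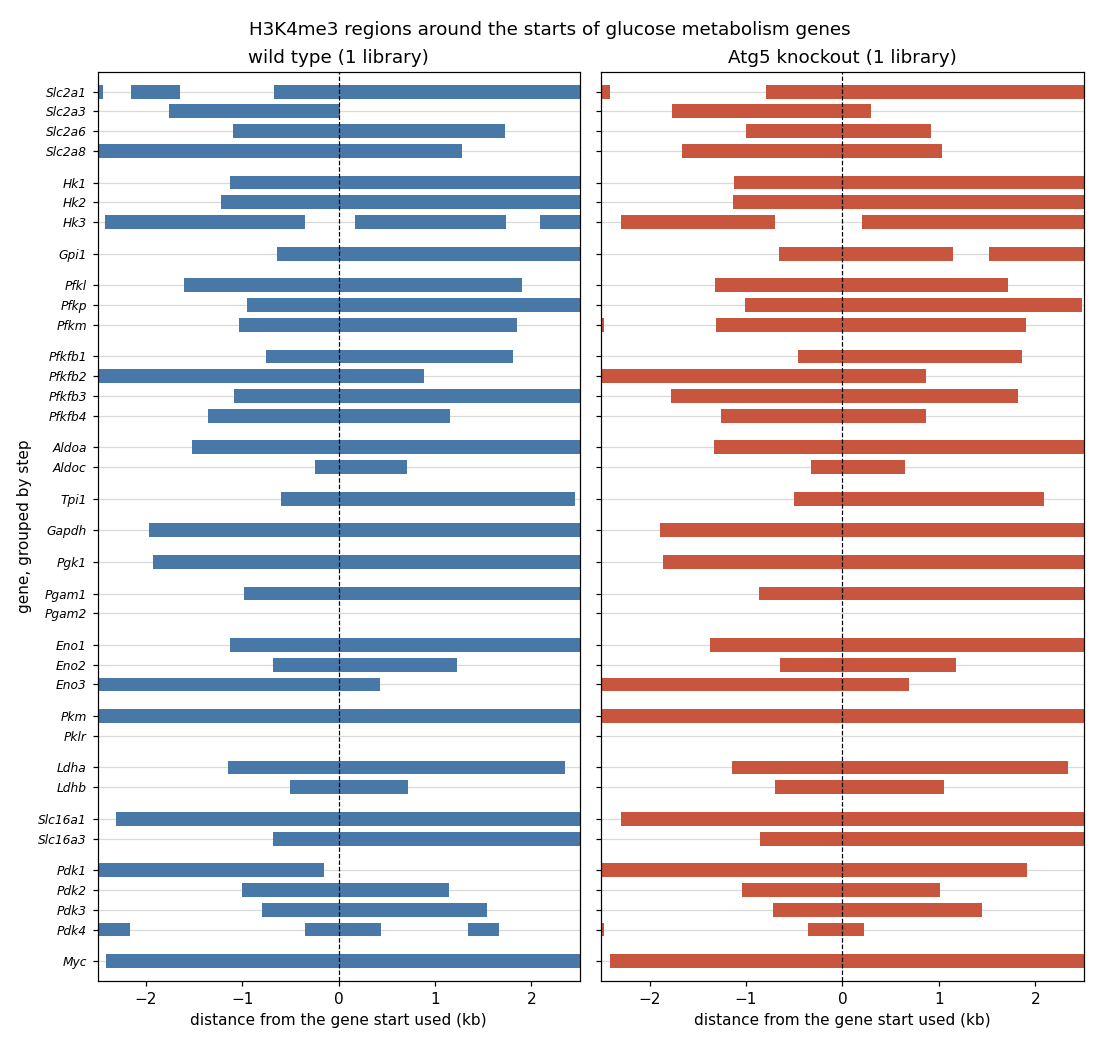
H3K4me3 regions (bars) from 2.5 kb before to 2.5 kb after the start used for each gene, with wild type on the left and Atg5 knockout on the right, 1 library each; the x axis is distance in kb in the direction of the gene, except for Slc2a3 and Myc, which follow the chromosome. The same 34 genes have a region within 1 kb of the start in both panels, Pgam2 and Pklr are empty in both, and the Pdk1 bar reaches past the start in the knockout panel only.

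Among the glucose transporters, Slc2a1 encodes GLUT1, the main carrier of activated T cells. Slc2a1 (chromosome 4, start 119108745) had 3738 bp covered in the wild-type library and 3384 bp in the knockout. Its start lay under a region of 5185 bp in the wild-type library and 3676 bp in the knockout, where a separate region of 1316 bp followed. Both lists also held a region further upstream (1166 and 1151 bp). A weak wild-type region of 515 bp (fold 3.38) between it and the start met no knockout region. The Slc2a1 difference of −354 bp became 126 bp within 1 kb and 161 bp with a −log10 q minimum of 5.

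Slc2a8 and Slc2a6 encode GLUT8 and GLUT6, transporters found largely inside the cell. Slc2a8 (chromosome 2, start 32982083) had 3759 bp in the wild-type library and 2694 bp in the knockout, a difference of −1065 bp. Of these lengths, 2480 and 1661 bp lay upstream of the start. Slc2a6 (chromosome 2, start 27027998) had 2826 and 1921 bp, a difference of −905 bp. Its shorter side was downstream of the start, with 1732 and 917 bp. Within 1 kb of the start the differences were 0 bp for Slc2a8 and −84 bp for Slc2a6, so both lay at the outer flanks. Slc2a8 was the longest transporter gene in the wild type and Slc2a1 in the knockout, but in the wild type they were only 21 bp apart.

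Slc2a3 encodes GLUT3, a high-affinity transporter of lymphocytes and neurons. For Slc2a3 (chromosome 6, 122727809 to 122802363) no transcript start was in the table used, and the gene end with more coverage stood in, with 1773 and 2070 bp. Deeper in the gene both lists held a second strong region (1407 and 1819 bp). Further still from the gene end used, a wild-type region of 1129 bp (122741503 to 122742631, fold 8.02) faced a knockout region of 2314 bp (122741290 to 122743603, fold 21.4). With no start in the table, which of these Slc2a3 regions lies at a transcript start cannot be told. The folds are the authors', each relative to the background of its own library, and were compared only within a list. Over the whole gene 6689 bp were covered in the wild-type library and 9347 bp in the knockout. With only regions of a −log10 q of at least 10, this difference turned from 2658 to −200 bp. Every wild-type region of the gene passed that cut, while weaker knockout regions dropped out, such as that of 1363 bp (−log10 q of 7.18). The regions of 1129 and 2314 bp both passed it, so the contrast between them remained. With 20000 regions per list the difference over the whole gene was 2736 bp.

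Hexokinases trap glucose in the cell as glucose 6-phosphate. Hk1, the broadly used form, has 2 annotated starts, and only the downstream one (chromosome 10, 62340421) was marked, with 3631 bp in the wild-type library and 3630 bp in the knockout. Its upstream start (62379908) had 264 and 0 bp. Hk2, the inducible form (chromosome 6, start 82774454), had 3717 and 3638 bp. Hk3, a form of myeloid blood cells (chromosome 13, start 55021385), had 4049 and 3898 bp, but in neither list did a region cross its start. Of the Hk3 lengths, 2076 and 1599 bp lay upstream of the start, in the region of highest fold in its window. The Hk3 difference was 256 bp instead of −151 bp with a −log10 q minimum of 5. At all 3 hexokinase genes the lists differed by less than 200 bp around the start.

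Gpi1, whose enzyme makes fructose 6-phosphate, had 3138 and 2789 bp. Its difference of −349 bp became −1330 bp with a −log10 q minimum of 10 or 20000 regions per list, and −1218 bp within 5 kb. With regions joined over gaps of up to 1 kb it was 23 bp. Phosphofructokinase commits the sugar to glycolysis, and its subunit genes Pfkl, Pfkp and Pfkm had 3502, 3452 and 2880 bp in the wild type. In the knockout Pfkl, Pfkp and Pfkm had 3038, 3491 and 3245 bp. The subunit gene with the longest coverage was Pfkl in the wild type, by 50 bp over Pfkp, and Pfkp in the knockout. The end of Senp1 lies within 2.5 kb of the Pfkm start, so its coverage may belong to either gene.

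The Pfkfb enzymes make and break fructose 2,6-bisphosphate, the activator of phosphofructokinase. All of their genes were marked in both lists. Pfkfb3, the form with the strongest kinase side, was longest in each list (3584 and 3595 bp), followed by Pfkfb2 (3391 and 3366 bp), Pfkfb1 (2570 and 2321 bp) and Pfkfb4 (2515 and 2122 bp). Pfkfb3 was marked at both of its annotated starts, with 2523 and 2444 bp at the upstream one (chromosome 2, 11553929) and the lengths above at the downstream one (11502090). Pfkfb1, a liver and muscle form, has an end of Apex2 within 2.5 kb of its start, and Pfkfb2 an end of Yod1, so their coverage may belong to either gene. The innermost annotated start of Pfkfb1 (chromosome X, 150594428) had 0 bp in both lists.

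In the lower part of glycolysis the ubiquitous isozyme was the longer one in every step that has isozymes. Aldoa had 4024 bp in the wild-type library and 3829 bp in the knockout, against 957 and 981 bp for Aldoc, the brain aldolase. Pgam1 had 3480 and 3363 bp, and the muscle mutase gene Pgam2 had 0 bp in both. Eno1 (3629 and 3879 bp) was longer than the neuronal Eno2 (1910 and 1833 bp). The muscle gene Eno3 had 2934 and 3187 bp, but its region also covers the start of the actin-binding protein gene Pfn1. That region spanned 6744 bp in the wild-type library and 12123 bp in the knockout, and 95.3% of the latter lay under wild-type regions. Pkm filled the whole window in both lists (5001 bp), and Pklr, the pyruvate kinase of liver and red cells, had 0 bp in both.

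With all regions kept, the steps with a single gene differed by less than 500 bp between the lists within 2.5 kb of the start. Tpi1, triose phosphate isomerase, had 3052 and 2598 bp and lies beside Usp5. Gapdh was covered from end to end of the gene (100% in both), with 4467 and 4393 bp around its start. Pgk1, phosphoglycerate kinase, had 4426 and 4359 bp. At least 4000 bp were covered in both lists at 5 of the 36 genes, namely Gapdh, Pgk1, Pkm, Slc16a1 and Myc, against 3.89% of all genes. Of all genes 36.4% were marked in neither list, which lowers that share, so no excess can be read from it. An end of Ncapd2 lies within 2.5 kb of the Gapdh start, and the Gapdh region comes within 1 kb of the start of Iffo1. The region over the start spanned 9181 and 8657 bp at Pkm and 6894 and 6019 bp at Gapdh.

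Of the lactate dehydrogenase genes, Ldha encodes the subunit that favours making lactate and Ldhb the one that favours using it. Ldha (chromosome 7, start 46845804) had 3497 bp in the wild-type library and 3488 bp in the knockout. Ldhb (chromosome 6, start 142507957) had 1221 and 1749 bp, 528 bp more in the knockout. The authors' fold of the Ldhb region was 6.95 in its wild-type list, under the list's median of 7.81, and 15.8 in its knockout list, over the median of 8.02. When each list was cut to its 20000 regions of highest −log10 q, Ldhb kept its region in the knockout only. T cell markers were longer in the same library (6934 and 50325 bp in sum), and their part in the Ldhb difference was not tested.

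The monocarboxylate transporter genes Slc16a1 (MCT1) and Slc16a3 (MCT4), whose products carry lactate across the membrane, had 4809 and 3185 bp in the wild type. In the knockout Slc16a1 had 4797 bp and Slc16a3 had 3355 bp. Promoters of 3 lactate genes are shown next, because the word ACGTG, the core shared by the HIF-1 site and the Myc E-box CACGTG, differs in number between them. ACGTG on either strand is in capitals. Ldha lies at chr7:46845554-46845853 (+ strand), Ldhb at chr6:142507908-142508207 (− strand) and Slc16a1 at chr3:104638414-104638713 (+ strand).
Ldha: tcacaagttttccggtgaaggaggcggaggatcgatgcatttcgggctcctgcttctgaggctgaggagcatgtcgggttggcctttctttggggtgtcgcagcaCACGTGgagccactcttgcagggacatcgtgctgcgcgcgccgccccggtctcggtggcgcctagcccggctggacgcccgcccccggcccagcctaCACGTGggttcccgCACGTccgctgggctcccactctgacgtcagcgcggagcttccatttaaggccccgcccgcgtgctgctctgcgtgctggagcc
Ldhb: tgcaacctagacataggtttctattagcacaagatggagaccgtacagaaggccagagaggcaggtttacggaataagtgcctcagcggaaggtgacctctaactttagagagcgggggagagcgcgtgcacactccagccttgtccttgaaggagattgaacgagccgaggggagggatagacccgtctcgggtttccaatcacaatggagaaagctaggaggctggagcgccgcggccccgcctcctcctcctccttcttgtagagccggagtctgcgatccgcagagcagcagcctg
Slc16a1: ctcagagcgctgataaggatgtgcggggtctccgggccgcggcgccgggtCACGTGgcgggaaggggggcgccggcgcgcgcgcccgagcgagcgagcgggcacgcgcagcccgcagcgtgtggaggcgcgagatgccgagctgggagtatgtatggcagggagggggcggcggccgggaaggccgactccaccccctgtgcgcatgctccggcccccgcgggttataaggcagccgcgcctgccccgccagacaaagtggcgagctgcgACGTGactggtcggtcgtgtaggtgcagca
Ldha held 5 matches to ACGTG. Its 2 copies of CACGTG each count on both strands, since that word reads the same on either. Slc16a1 held 3 matches, among them 1 copy of CACGTG, and Ldhb none. Slc16a3, which is not shown, held 2 and no CACGTG.

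Over the 34 genes with a promoter in the table, ACGTG occurred in 16 (47.1%), against 20.8% of all 17492 promoters and 26.1% of the 10358 promoters marked in both lists. CACGTG occurred in 5 (14.7%, against 7.94% and 10.3%). GCGTG, the other form of the HIF-1 core, occurred in 55.9% (38.8% and 52.8%), the GC box GGGCGG in 55.9% (46.6% and 65.9%) and TATAAA in 5.88% (13.3% and 6.81%). Both strands were searched. These are matches of letters in 300 bases and were not tested.

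Promoters marked in both lists held more CG pairs than those marked in neither. The median was 21 CG pairs in promoters marked in both lists and 3 in those marked in neither. The 34 genes had a median of 19, from 1 to 42. Marked genes with fewer than 5 CG pairs at the start used were Pfkfb1, Eno3, Pfkm and Pdk1, and at Pfkfb1, Eno3 and Pfkm an end of another gene lies within 2.5 kb. For Pdk1 the start used is the downstream one of a pair.

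**Figure D2:**
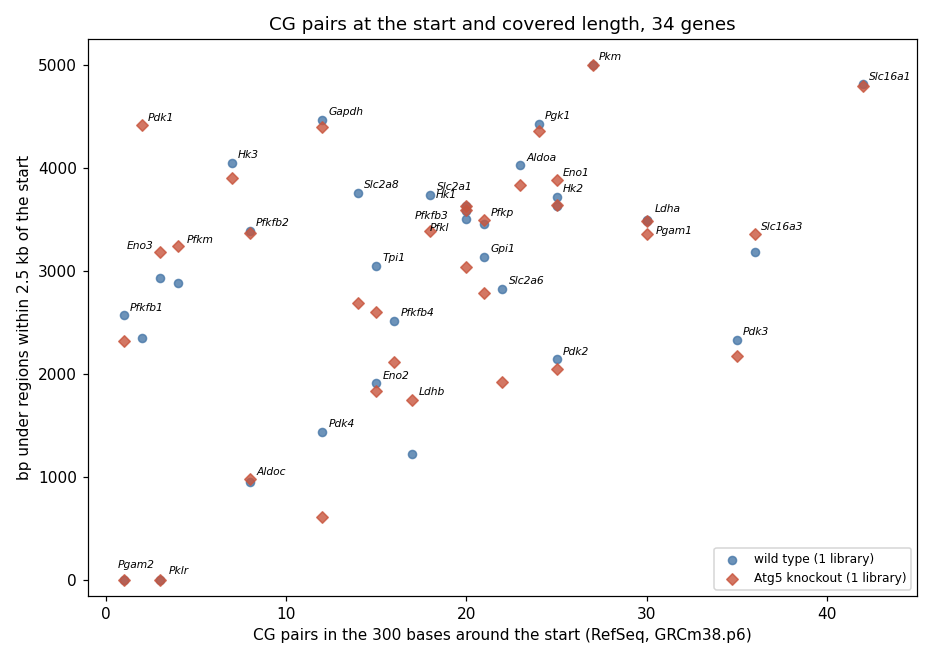
CG pairs in the 300 bases around the start (x axis) and bp covered within 2.5 kb of it (y axis) for 34 genes, with a circle for the wild-type library and a diamond for the knockout library. Pgam2 and Pklr, with 1 and 3 CG pairs, lie at 0 bp, while Slc16a1, with 42, lies at 4809 and 4797 bp.

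Pdk1 had the largest difference of the 36 at the start used, but not around the outer end of the gene (71873215). There its 899 bp was less in size than the differences of Slc2a8 (−1065 bp) and Slc2a6 (−905 bp). Pdk1, a HIF-1 target whose kinase switches off pyruvate dehydrogenase, has annotated starts on chromosome 2 at 71873224 and 71874904. The wild-type region ran from 71872346 to 71874749 (2404 bp) and the knockout region from 71872413 to 71876823 (4411 bp). The regions began within 100 bp of each other, and the knockout region ended 2074 bp further into the gene. Around the downstream start this gave 2346 bp in the wild-type library and 4411 bp in the knockout, and around the upstream start 2404 and 3312 bp. The T cell markers were longer in the same library, and their part in the Pdk1 difference was not tested.

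The other pyruvate dehydrogenase kinase genes had shorter coverage in the knockout. Pdk2 had 2145 and 2053 bp, and Pdk3 had 2332 and 2173 bp. Pdk4, a kinase raised in fasting and fat use, had 1443 bp in the wild-type library and 611 bp in the knockout (chromosome 6, start 5496278). The highest fold in its window was 9.88 in the wild-type list, above that list's median of 7.81, and 5.53 in the knockout list, below its median of 8.02. Those folds belong to an upstream region with summits at −2787 and −2638 bp from the start, outside the window. Over the Pdk4 start itself the region was weak in both lists, with 782 bp (fold 3.34) and 580 bp (fold 3.49). With 20000 regions per list Pdk4 had no covered bp in either. The wild-type order Pdk1, Pdk3, Pdk2, Pdk4 was also that of the knockout, but Pdk1 led Pdk3 by 14 bp in the former and by 2238 bp in the latter.

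Myc encodes the transcription factor that drives many of these genes in dividing T cells. For Myc (chromosome 15, 61985341 to 61990361) no transcript start was in the table, and the gene end of lower coordinate was used. The Myc region spanned 6350 bp in the wild-type library and 7218 bp in the knockout, with 4908 and 4913 bp of the window covered. The authors' folds of 55.6 and 104 were the highest of the 36 genes in each list. In the knockout list no region of the genome had a higher fold. The −log10 q values at Myc were 2248 and 1739. A region of like fold in the wild-type list, at the pathway gene Bpgm (fold 59.0), had only 331. The cause of this gap was not tested.

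**Figure D3:**
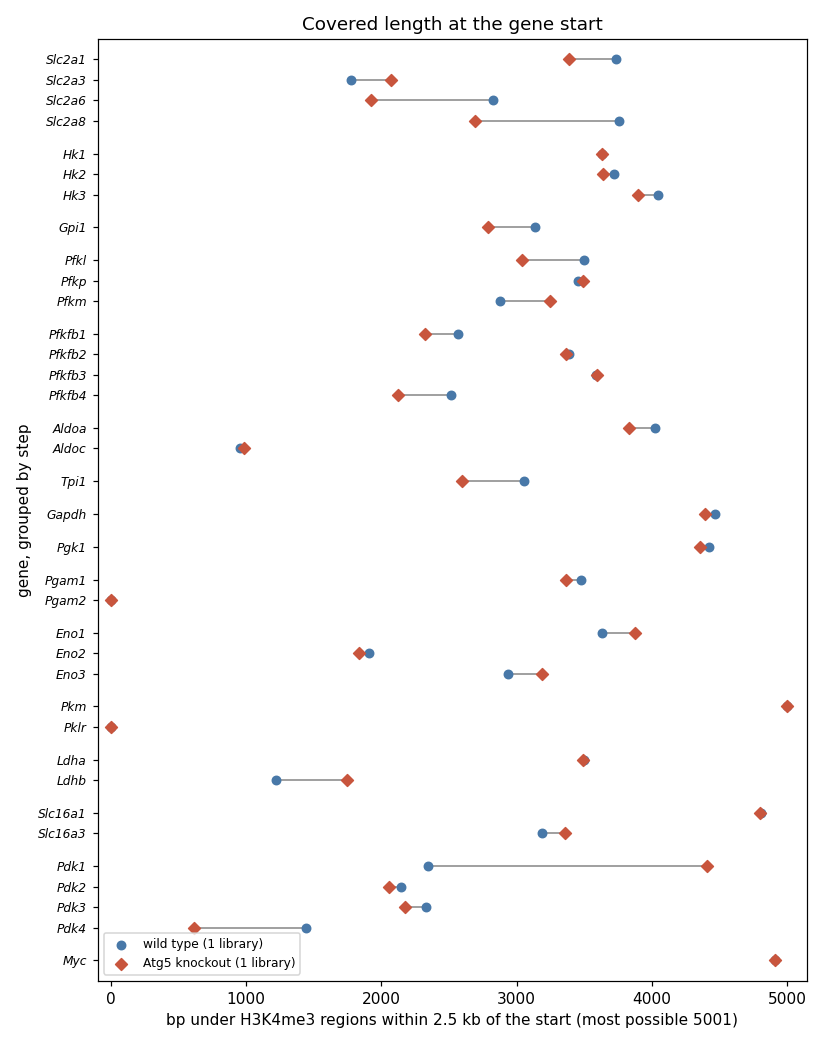
Covered length within 2.5 kb of the start (x axis, bp, at most 5001) for each gene, grouped by step, with a circle for the wild-type library and a diamond for the knockout library joined by a line. Most pairs lie close together; the longest lines are those of Pdk1 (2346 and 4411 bp), Slc2a8 (3759 and 2694 bp), Slc2a6 (2826 and 1921 bp) and Pdk4 (1443 and 611 bp).

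The start used was the one with the most coverage, so a gene with several starts had more chances. The isozyme with the longest coverage was the same in both lists in 9 of the 11 steps with more than 1 gene. These were Hk3, Pfkfb3, Aldoa, Pgam1, Eno1, Pkm, Ldha, Slc16a1 and Pdk1. The exceptions were the transporters and phosphofructokinase, where the leading wild-type genes were 21 and 50 bp apart. The wild-type lead of Hk3 over Hk2 was 332 bp and drew on a weak region of 771 bp (fold 3.90, −log10 q of 4.71). With a −log10 q minimum of 5 that region dropped out, and Hk2 led in the wild type. A longer region shows where the mark was called, not how much of an enzyme is made.

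Over the gene bodies the lists differed more. Between the annotated ends of the gene, coverage was longer in the knockout for 13 genes, shorter for 20 and equal for 3, with a median of −37.5 bp against 0 bp over all genes. At least 500 bp more were covered in the knockout at 7 genes (19.4%, against 16.2% of all genes) and at least 500 bp less at 8 (22.2%, against 13.2%). Of all 21887 genes, 6618 were equal in the lists, which lowers both background shares. Shares among genes covered in both lists were not computed for gene bodies, so no excess can be read from these values. The 7 were Slc2a3, Pdk1, Hk3, Slc16a1, Pfkfb3, Myc and Eno1. Of these, Slc2a3, Slc16a1, Pfkfb3 and Eno1 turned to shorter (−200, −127, −902 and −127 bp) with a −log10 q minimum of 10. With 20000 regions per list Hk3 was at 0 bp, Pfkfb3 at 23 bp, and Slc16a1 and Eno1 at −127 bp each. The 8 were Hk2, Slc2a1, Hk1, Pfkfb4, Gpi1, Slc2a6, Pdk4 and Pfkfb2. Of these, Pdk4 was at 0 bp and Pfkfb4 at −393 bp under both settings. With 20000 regions Hk2 fell to −400 bp and Hk1 to −59 bp. All of these values are under 500 bp in size.

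**Figure D4:**
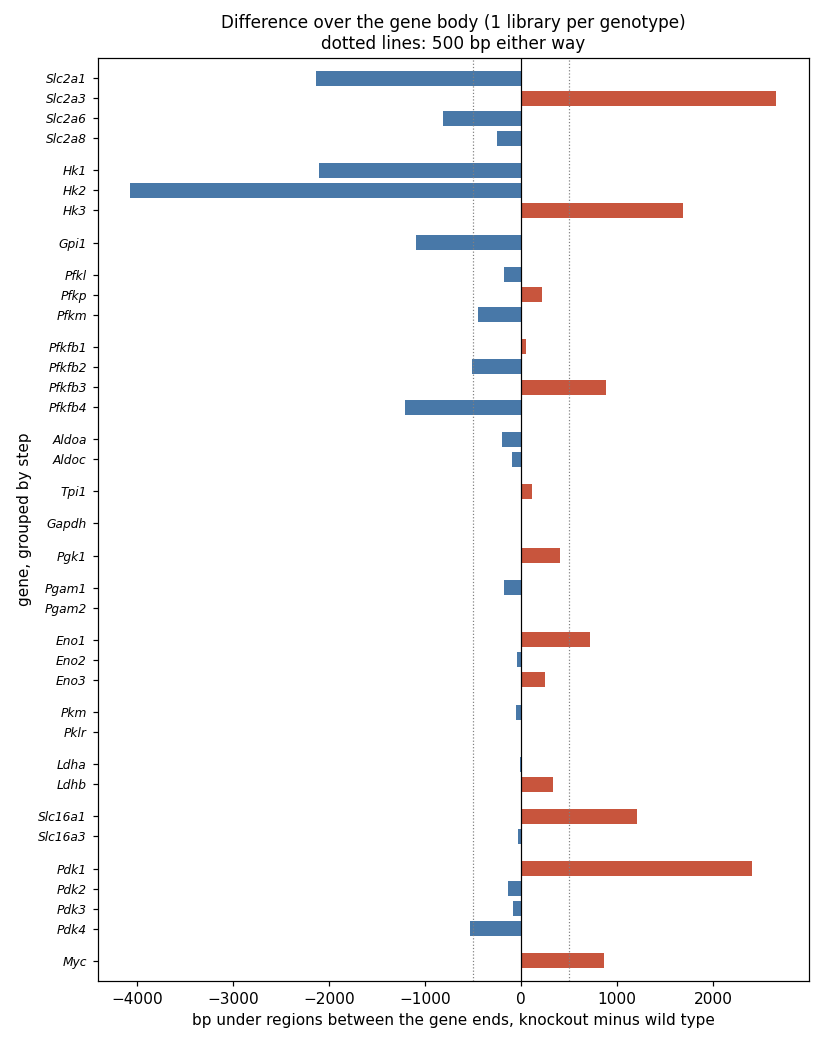
Difference in bp under regions between the annotated ends of each gene, knockout minus wild type (x axis; 1 library per genotype), grouped by step. Bars to the right are longer in the knockout, such as Slc2a3 (2658 bp) and Pdk1 (2402 bp), and bars to the left are shorter, such as Hk2 (−4077 bp) and Slc2a1 (−2133 bp).

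With all regions kept, isozymes of the same step differed in opposite directions over the gene body, but not under every setting tried. Hk2, which spans 49430 bp, had 9178 bp under 8 regions in the wild type and 5101 bp under 4 in the knockout. Among them, 5 wild-type Hk2 regions met no knockout region, with folds from 4.13 to 7.02. Hk1 had 11703 and 9594 bp, while Hk3 had 2967 bp in the wild-type library and 4650 bp in the knockout. Slc2a1 had 9893 and 7760 bp, and Slc2a3 had 6689 and 9347 bp. With a −log10 q minimum of 10 both transporter genes were shorter in the knockout (differences of −1075 bp for Slc2a1 and −200 bp for Slc2a3). With 20000 regions per list these differences were −1075 and 2736 bp, and those of the hexokinase genes were −400 bp for Hk2, −59 bp for Hk1 and 0 bp for Hk3, while Pdk1 kept 2074 bp.

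Regions at these genes met one in the other list about as often as regions elsewhere. At the 36 genes, 63 of 82 wild-type regions (76.8%) met a knockout region and 62 of 74 knockout regions (83.8%) met a wild-type region, against 73.3% and 76.0% of all regions in each list. Within 2.5 kb of a start these were 38 of 40 (95.0%) and 39 of 39, against 93.8% and 91.6% of regions near the start of any protein-coding gene. Further inside the genes they were 25 of 42 (59.5%) and 23 of 35 (65.7%), against 65.2% and 60.8% of regions elsewhere in any gene. Of the regions that met none, 17 of 19 and 12 of 12 overlapped a gene body outside the 2.5 kb window. The folds of regions that met none ran up to 7.02 (wild type) and 7.01 (knockout). Medians were 4.81 and 5.25 for all body regions of these genes outside the window, and 28.9 and 33.7 for those within 2.5 kb of a start.

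**Figure D5:**
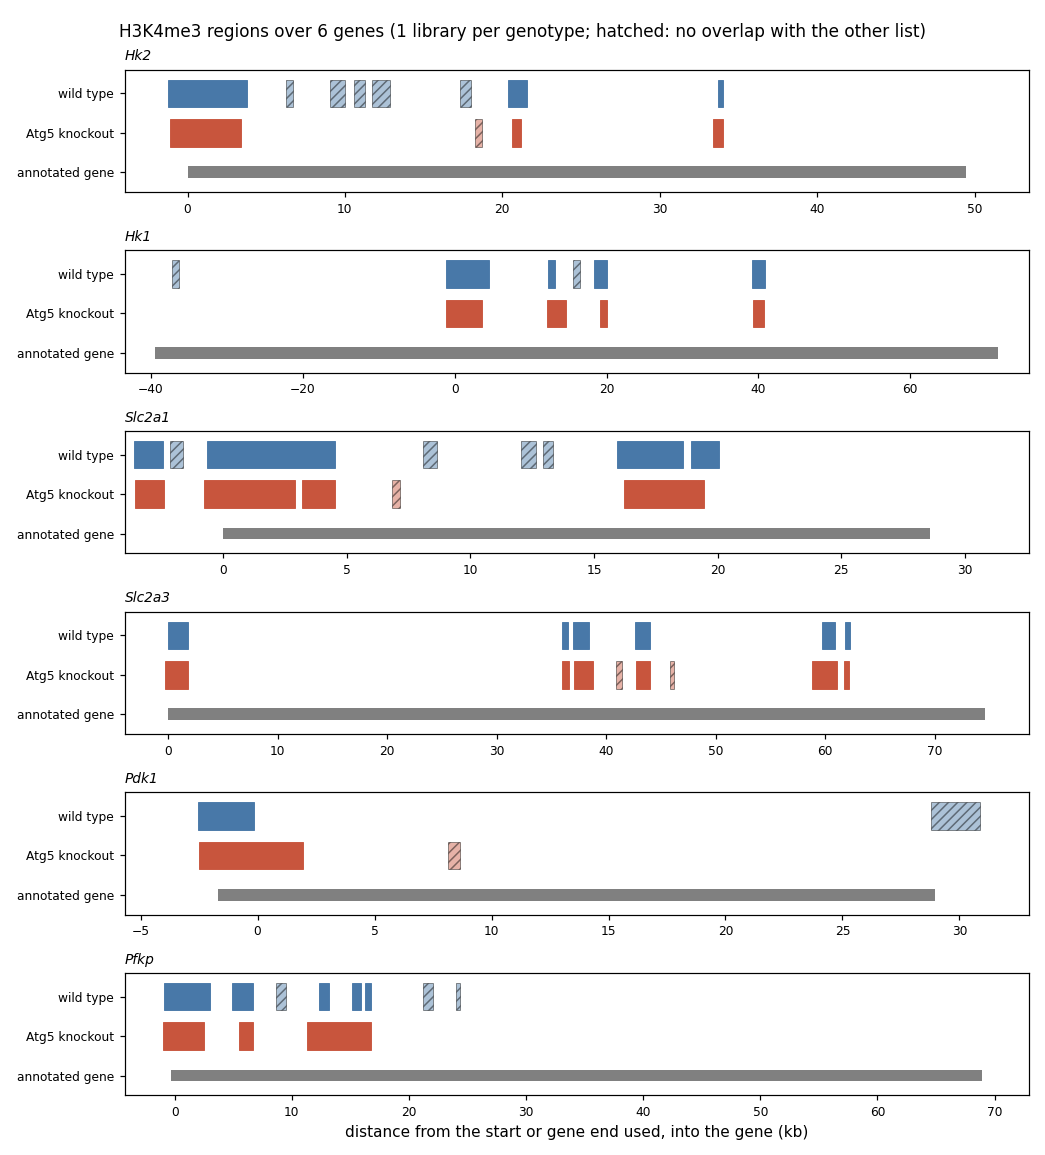
Positions of H3K4me3 regions over Hk2, Hk1, Slc2a1, Slc2a3, Pdk1 and Pfkp in the wild-type (blue) and knockout (red) library, with the annotated gene in grey; the x axis is distance in kb into the gene from the start or gene end used, and hatched regions met none of the other list. In Hk2 5 of the wild-type regions are hatched, and in Pdk1 the knockout region at the start is the longer one (4411 against 2404 bp).

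Another 46 genes around the pathway were measured in the same way. They include tissue-restricted isozymes, the pyruvate dehydrogenase complex, the pentose phosphate pathway, gluconeogenesis and regulators. Of these, 34 (wild type) and 35 (knockout) were marked, and at least 500 bp more were covered at 4 and at least 500 bp less at 4 (8.70% each, against 10.0% and 6.63% of all genes). The largest difference was at Mycn, a relative of Myc, with 9 bp in the wild-type library and 3155 bp in the knockout. Txnip, which holds back glucose uptake, had 4074 and 5001 bp. Fbp2, a muscle fructose bisphosphatase, had 3761 and 2505 bp. Pdhb, a subunit of pyruvate dehydrogenase, had 3099 and 2379 bp, and the phosphatase gene G6pc3 had 2271 and 1697 bp. Genes with 0 bp around the start and over the gene body in both lists included Slc2a2, Pgk2, Slc16a8 and G6pc, named here after their values were seen.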

How the data were processed

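H3K4me3 peak lists of 2 libraries out of 6 samples were used; H3K27me3 and input were not analysed here. Per the submitters' processing notes, peaks were called with MACS2 on GRCm38 (mm10). Its version and settings, the aligner and any use of input were not given in the sources used here. Peak names point to 1 library per list. Following the narrowPeak format, the authors deposited for each region a fold (a linear ratio over background), a −log10 p-value, a −log10 q-value (lowest 2.00 and 2.02), a score that tracks the q-value and was not used, and the summit's offset. None was scaled between libraries. Covered lengths depend on depth and on the calling threshold.

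Regions off the autosomes, X and Y were left out (65 and 64). Gene ends and transcript starts came from RefSeq (GRCm38.p6). Starts were known for 17492 of 21887 protein-coding genes and for 34 of the 36 members. The start with more covered length, summed over both lists, was used. Where none was given (Slc2a3 and Myc), the gene end with more covered length was used. That table holds no exons. The choice of starts was made after the reference table was seen. The 36 genes, the other lists and the settings were chosen with earlier results of these data known. The text gives every member by step, in full those that differ by at least 500 bp, lie in neither list or lead a step, the 6 other pathway genes with the largest difference (some genes that the rule names are left out of the text), and marker lists by their counts and the genes at 0 bp, chosen after their values were seen. One library per genotype allows no test. Coverage was tested on simulated data (600 of 600 windows recovered). Python 3.11.15, NumPy 2.4.6, pandas 2.3.3 and Matplotlib 3.10.9 were used.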

Additional observations from a re-analysis of the deposited data

How the results depend on the processing

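No paired analysis was possible because each genotype has 1 library. Windows of 1 and 5 kb, the gene body with 1 kb around it, a −log10 q of at least 5 or 10, 20000 regions per list, gene boundaries, joined regions, genes without a neighbour and, added after the data were seen, the outermost end on the gene's strand were tried. The number of marked genes ranged from 29 to 34 in the wild type and from 30 to 34 in the knockout when all 36 were counted. The median difference in covered length ranged from −115.5 to 0 bp. The counts of genes past 500 bp, 2 longer and 3 shorter in the knockout, were 1 and 0 within 1 kb, where fewer bp can differ, 7 and 11 within 5 kb, and 9 and 9 over the gene body with 1 kb around it. Shares over all genes were not computed for these other windows, so no excess can be read from the counts. The cause of the higher counts in the wider windows was not tested. Pdk1, Ldhb, Slc2a8, Slc2a6 and Pdk4 reversed under none of these settings, although Slc2a8 was at 0 bp within 1 kb and Pdk4 with 20000 regions. The isozyme of longest coverage was the same in both lists in 7 to 10 of 11 steps. Over gene bodies, a −log10 q of at least 10 turned the difference to −200 bp at Slc2a3, −902 bp at Pfkfb3, −127 bp at Eno1 and −127 bp at Slc16a1, and 20000 regions per list gave −127 bp at Eno1 and −127 bp at Slc16a1. Pdk1 had 899 bp more at its outermost end, against 2065 bp at the start used. Depth is unknown for both libraries, which limits all lengths.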
